A study of Danio rerio with 20 samples.

Results

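Heat shock proteins and chaperones were described in oligodendrocyte precursor cells (OPCs, proliferating glia from which myelin-forming oligodendrocytes arise) that had been sorted out of zebrafish. The members were all genes of the deposited tables whose name begins with hsp or dnaj or is one of cct2 to cct8, with hspg2 (perlecan, a matrix proteoglycan) left out. This gave 95 of 31743 genes, matched by name and not by their values. The choice of names was made with earlier results of these data known. They comprised 12 stress-inducible cytosolic members, 7 constitutive cytosolic members, 2 endoplasmic reticulum (ER) chaperones, 13 ER J-proteins and other ER members, 8 rows for subunits of the CCT ring (cct2 has a pair of rows, cct2_1 and cct2_2), 12 mitochondrial members, 28 other J-proteins, 6 other small heat shock proteins and 7 others.

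The 20 libraries formed 4 groups of 5, all from sorted zebrafish OPCs after 16 h. These were 4AP (4-aminopyridine, a drug that blocks potassium channels and so heightens neuronal firing), its own control, demyelination (capsaicin acting on TRPV1, a heat- and capsaicin-gated cation channel), and its own control. Strain, age, the transgenes behind the sort and TRPV1 expression, the composition of the control treatments and any pooling of fish are not given in the sources used here, and nothing states that replicates came from separate fish, so p-values measure the spread between these samples only.

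Chaperones bind unfolded or newly made proteins and keep them from aggregating. HSP70 proteins work in cycles driven by J-proteins (the dnaj genes), HSP90 proteins act later on proteins that are nearly folded, small heat shock proteins hold unfolded chains, and the CCT ring folds actin and tubulin. The heat shock factor Hsf1 switches on a subset of these genes (hsp70, hsp90aa1, dnajb1, hsph1, hspb1) when unfolded protein builds up in the cytosol, whereas hspa5 and hsp90b1 respond to unfolded protein in the ER.

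Total gene reads (reads in exons plus introns of a gene) per library ran from 38314 to 3528970 under demyelination and from 1180 to 282966 in its control group, from 356494 to 1744483 under 4AP and from 163158 to 897620 in its control group. Demyelination control 1, with 1180 reads, is the shallowest: a gene with 0 reads there may still have been present. In the demyelination comparison the log2 fold changes of the hsp70 copies are also given without it, while those of other members are given only with it. The names of the tables carry a prefix of unstated meaning, which may mark a batch. It is P1 in 4AP controls 1 to 4, P2 in 4AP control 5 and all 5 4AP libraries, and P3 in all 10 libraries of the demyelination experiment, so within P1 and P2 the prefix and the 4AP treatment can be told apart only through 4AP control 5. All 6 listed OPC markers (such as olig2 and sox10) had reads, with a summed level of 213 to 659 CPM (counts scaled to a common library total) in the 10 libraries with or without 4AP. Markers of other cells were present too: the 6 exocrine pancreas genes summed to 3986 to 20020 CPM in the same 10 libraries, and the 6 epidermal genes to 4487 to 11239. Without demyelination control 1, the OPC markers summed to 355 to 468 CPM in the demyelination controls and to 124 to 456 under demyelination. In the same order, the exocrine pancreas genes summed to 5085 to 5967 and 4144 to 13676, and the epidermal genes to 3018 to 3811 and 2319 to 7648. What part such differences have in the chaperone values was not tested. Fewer cells of a type and less RNA per cell cannot be told apart in such bulk libraries.

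In every group most chaperone reads came from the 4 inducible hsp70 copies. Of 344306 reads on the members in all libraries, hsp70.2 held 97490, hsp70l 77249, hsp70.1 56700 and hsp70.3 45815. As a share of Total gene reads, the copies together made up 1.65% to 2.05% in 4AP controls 1 to 4 but 5.91% in 4AP control 5. The treated 4AP libraries had 2.25% to 3.59%. In the other experiment the share was 0.611% to 2.99% with demyelination and 2.35% to 4.60% without. By reads per library hsp70.2 ranked between 4 and 18 among all genes in both 4AP groups, and between 4 and 53 in both demyelination groups. The remaining stress-inducible members together made up 0.0453% to 0.197% of reads in the 4AP controls, 0.0839% to 0.160% in 4AP, and 0.137% to 0.369% over both demyelination groups. One member, hspa12a.2, had no read, and 12 had fewer than 20 reads in all 20 libraries together.

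The 3 copies hsp70.1, hsp70.2 and hsp70.3 lie side by side on chromosome 3 of the GRCz11 build. The tables list hsp70.1 at 26112780 to 26115559 on the minus strand, hsp70.2 at 26119603 to 26122353 on the minus strand, and hsp70.3 at 26123736 to 26127091 on the plus strand. All 3 fall inside the listed span of atp2a1, a calcium pump gene of fast muscle on the plus strand. atp2a1 held 18218 reads in all libraries, and whether counting used strand is not given in the sources used here. The fourth copy, hsp70l, is listed on chromosome 8 at 4798158 to 4800911 on the plus strand. Reads were often shared among these near-identical copies: 40.2% (hsp70.3) to 63.1% (hsp70l) of a copy's reads were unique to one place, and a change of one copy against another is therefore uncertain.

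To ask how raised neuronal activity bears on the chaperones of these cells, 4AP was compared with its control. Of the 95 members, 39 had enough reads to be tested, and 5 fell while 0 rose at an adjusted p under 0.05 (edgeR's quasi-likelihood test with Benjamini-Hochberg adjustment over the 5161 genes tested). Over all genes tested 2.98% were called higher, 10.1% lower and 13.1% either way, so the members' count stands near the background. The median log2 fold change was -0.16 over the 39 members and 0.19 over all genes tested. The 5 that fell were hspb1, hspa4a and 3 mitochondrial members, hspe1, dnajc15 and dnajc19. Of the 12 mitochondrial members 6 were tested. Those not called were hspa9 (log2 fold change 0.33 ± 0.41), dnajc11a (0.52 ± 0.68) and hspd1 (-0.33 ± 0.38, SE). No hsp70 copy, hsp90 gene, ER chaperone or CCT subunit passed the test.

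hspb1 (chromosome 5, 3568016 to 3584815) encodes a small heat shock protein that binds unfolded chains and actin filaments. Its normalised CPM (CPM over the reads of the tested genes, scaled by TMM) was 219, 290.1, 210.4, 182 and 266 in 4AP controls 1 to 5. In 4AP 1 to 5 it was 80.8, 85.5, 91.0, 78.1 and 154. Every 4AP library lay below every control, and 4AP 5 stood highest among the treated. The log2 fold change was -1.26 ± 0.29 (SE, n = 5 and 5, adjusted p = 0.0116).

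hspa4a (chromosome 21, 43137500 to 43171249) encodes an HSP110-type protein, a nucleotide exchange factor that resets HSP70. Normalised CPM was 345, 322, 360.0, 247 and 217 in the controls and 106, 99.0, 109, 111 and 204 in 4AP. The groups again did not overlap, and the highest 4AP library was again 4AP 5. Its log2 fold change was -1.24 ± 0.29 (SE, adjusted p = 0.0137). Of its reads 82.8% lay in introns, and on exon reads alone the change was -1.28 with an adjusted p of 0.0575.

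Among mitochondrial members, hspe1 (chromosome 9, 32301017 to 32305007) encodes HSP10, the lid of the HSP60 chamber of the matrix. It had 370.4, 308, 449, 349 and 227 normalised CPM in the controls and 125, 176, 176, 191 and 146 in 4AP, with no overlap between the groups. The log2 fold change was -1.05 ± 0.27 (SE, adjusted p = 0.0189), and it was -0.83 with an adjusted p of 0.0605 on exon reads. The call was also lost without control 3, 4AP 1, 4AP 2 or 4AP 5, where the adjusted p reached 0.0605. Its partner hspd1, HSP60 itself, was looked up after the values were seen: it gave -0.33 ± 0.38 (SE, adjusted p = 0.55) and was not called. Among the 39 members tested the groups did not overlap for 3, all lower in 4AP, where 3.58% of all genes tested had no overlap with 4AP lower and 5.95% with 4AP higher. Among the members with too few reads for a test they did not overlap for 7, all higher in 4AP (dnaja3a, dnajb13, dnajc17, dnajc24, hspa4l, hspa12a and hspa12b). These had 0 or 1 read in each of 4AP controls 1 to 4, which hold fewer Total gene reads than any 4AP library. The share over all genes with too few reads is not given here, so that count has no background and is not read as a rise.

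dnajc15 and dnajc19 encode J-proteins of the inner mitochondrial membrane that act with the protein import motor. dnajc15 (chromosome 9, 18215940 to 18278580) had 42.1, 72.5, 44.3 and 72.7 normalised CPM in 4AP controls 1 to 4 but 11.4 in control 5, against 11.1, 14.4, 20.9, 17.3 and 9.02 in 4AP. Control 5 thus lay within the 4AP range, and the log2 fold change was -1.60 ± 0.51 (SE, adjusted p = 0.0441). That call held in 1 of the 10 fits that each left out 1 library, the one without control 5 (adjusted p = 0.000641), and the adjusted p reached 0.15 in the other 9. Over all libraries 56.4% of dnajc15 reads lay in introns, against 7.69% of dnajc19 reads. dnajc19 (chromosome 22, 37534094 to 37541020) had 274 and 118 normalised CPM in controls 1 and 2, then 22.2, 29.1 and 40.4, against 8.36 to 25.2 in 4AP. The groups overlapped. The log2 fold change was -2.21 ± 0.57 (SE, adjusted p = 0.0205), and without control 1 it was -1.36 with an adjusted p of 0.105.

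**Figure D1:**
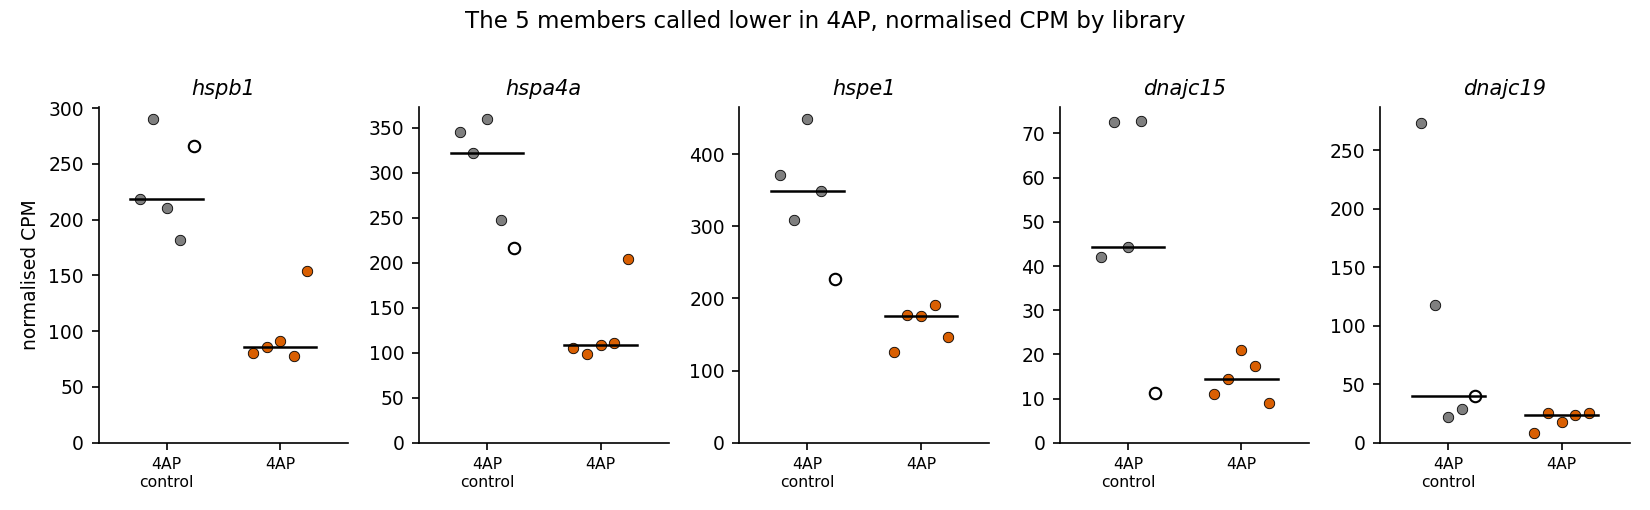
Normalised CPM (linear axis from 0) of hspb1, hspa4a, hspe1, dnajc15 and dnajc19 in the 5 4AP control and 5 4AP libraries. Points are libraries, lines are medians, and the open circle is 4AP control 5. hspb1, hspa4a and hspe1 show no overlap, whereas control 5 lies among the 4AP libraries for dnajc15 and the control spread of dnajc19 runs from 22.2 to 274.

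Of the 12 stress-inducible members 9 were tested and hspb1 alone was called. Of the 11 named, 8 had their highest level of this experiment in a control library, 4AP control 5. These were the 4 hsp70 copies, dnajb1a, dnajb1b, hsp90aa1.1 and hsp90aa1.2. The same count over all genes is not given here, and the hsp70 copies, which share reads, are not separate observations. For hsp70.1, the 4AP controls 1 to 5 had 4306, 3589.8, 3362, 3004 and 17089 normalised CPM, and 4AP 1 to 5 had 7756, 5501, 6521, 5502 and 9735. Every 4AP library thus lay above controls 1 to 4 and below control 5. The log2 fold change was 0.16 ± 0.43 (SE, adjusted p = 0.81). For hsp70.2 the controls had 10547, 8585, 7099.6, 7979 and 24832 and the treated libraries 7848 to 14171, and the log2 fold change was -0.23 ± 0.34 (SE, adjusted p = 0.65). hsp70.3 and hsp70l gave -0.58 ± 0.34 and -0.05 ± 0.30 (SE, adjusted p = 0.23 and 0.91), and in both the fifth control was again above all 9 other libraries.

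**Figure D2:**
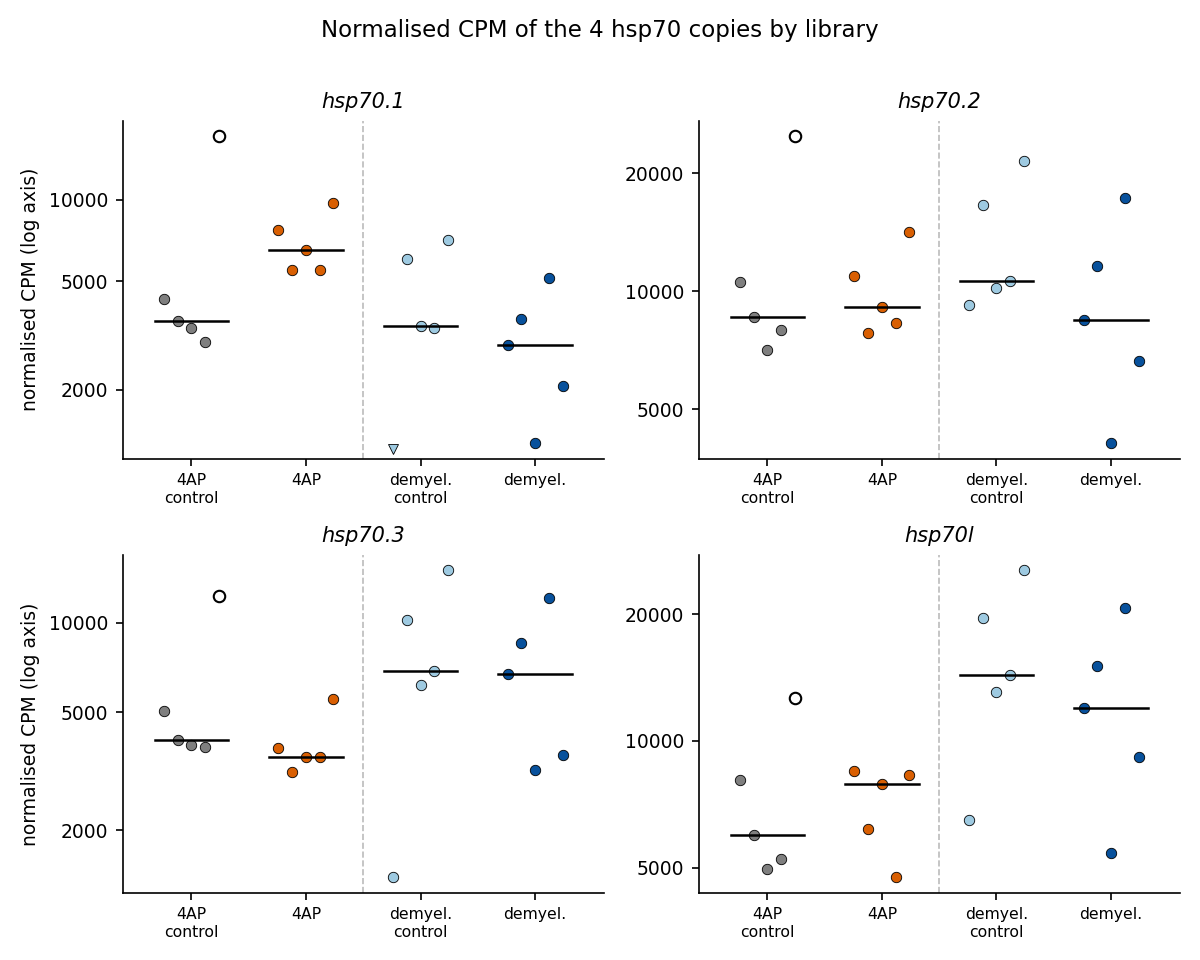
Normalised CPM (log axis) of the 4 hsp70 copies in each library of the 4 groups. Points are libraries, lines are medians, the open circle is 4AP control 5, and a triangle at the foot marks a library with 0 reads. The dashed line parts both experiments, which were normalised separately and are not on 1 scale. 4AP control 5 is the highest of its experiment in all 4 panels.

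Of the 11 stress-inducible members named, 9 stood above controls 1 to 4 in that library, while hspb1 and hspb11 lay within their range. Of the 25 named members of other classes 9 stood above controls 1 to 4, 8 within their range and 8 below it. Those above included hspa5, hspa9, cct4, cct5 and hsp90ab1. Those below included hspa8, hsp90b1, hspe1 and cct8. The same counts over all genes are not given here. hsph1, the stress-inducible HSP110, had 8.42, 9.07, 11.1 and 14.5 normalised CPM in controls 1 to 4 and 59.3 in control 5, against 66.8, 42.3, 52.2, 49.1 and 68.1 in 4AP. hsp90aa1.2, an inducible cytosolic HSP90, had 219, 317, 161 and 72.7 and then 1083, against 482, 499.5, 449, 709.8 and 996. dnajb1b, an HSP40 that loads HSP70, had 113 to 204 and then 619, against 144 to 313. dnajb1a had 0 reads in controls 1 to 4 and 18.9 normalised CPM in control 5, against 8.95 or more in all 5 4AP libraries. Many of these reads lay in introns. Over all libraries the share was 81.4% for hsph1, 52.9% for hsp90aa1.2, 69.5% for dnajb1a and 24.5% for dnajb1b. With all 10 libraries, hsph1 (log2 fold change 1.13 ± 0.48, adjusted p = 0.12), hsp90aa1.2 (0.72 ± 0.50, adjusted p = 0.32), hsp90aa1.1 (0.31 ± 0.52, adjusted p = 0.69) and dnajb1b (-0.27 ± 0.42, adjusted p = 0.67) did not pass the test.

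**Figure D3:**
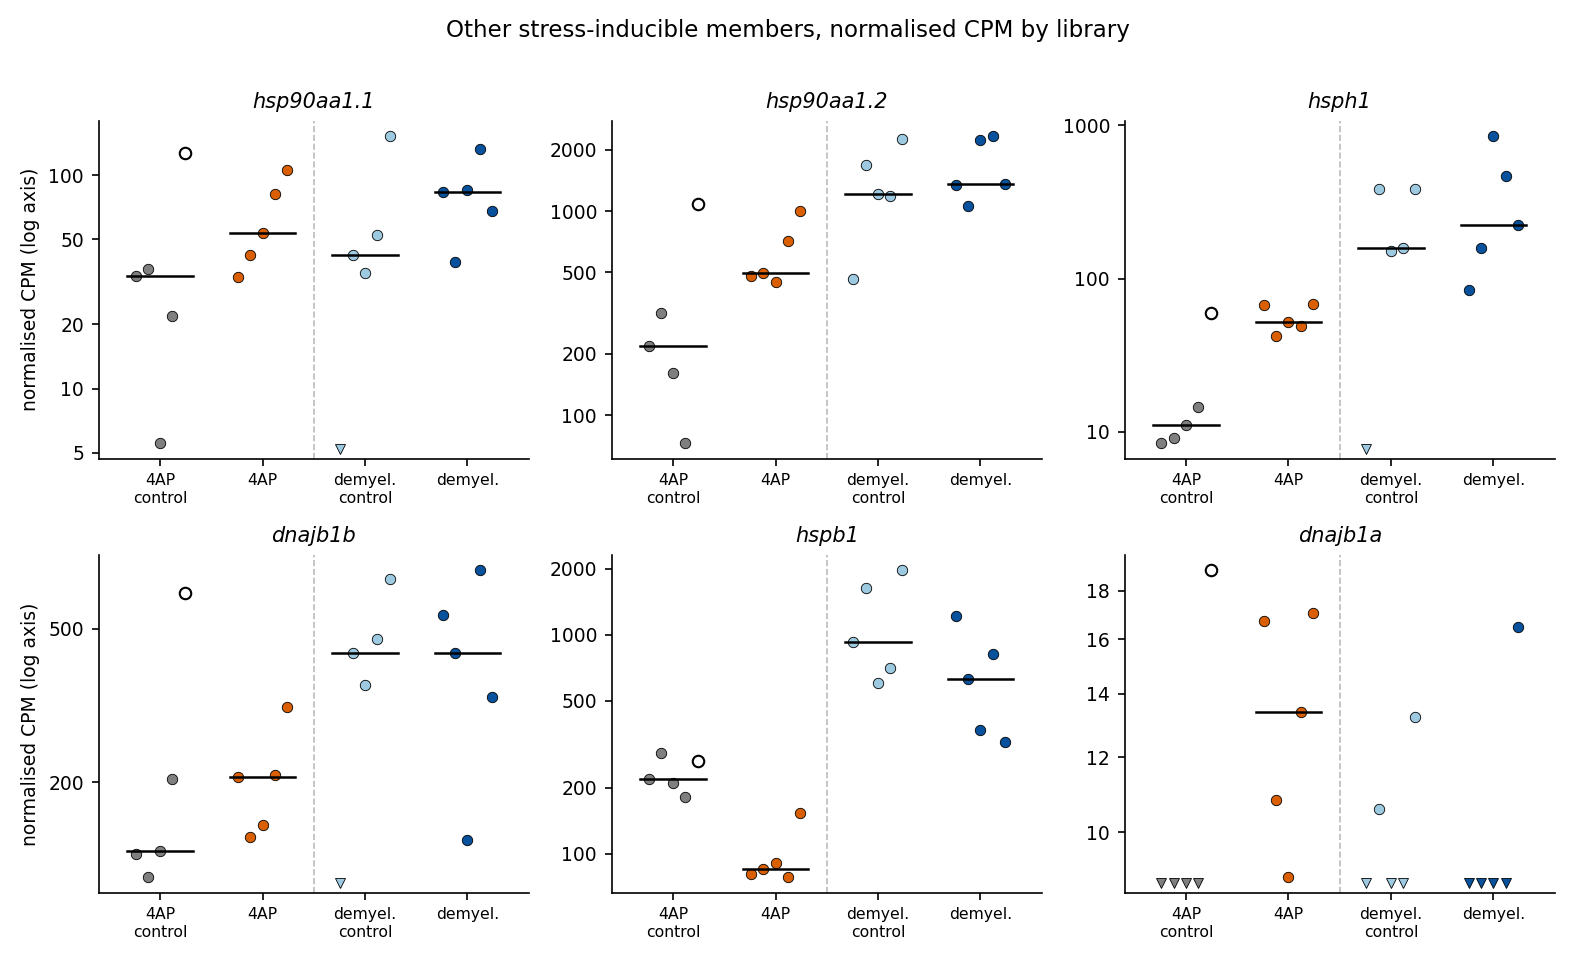
Normalised CPM (log axis) of 6 other stress-inducible members in each library of the 4 groups. Points are libraries, lines are medians (none is drawn at 0), the open circle is 4AP control 5, triangles at the foot mark 0 reads, and the dashed line parts both separately normalised experiments. For hsph1 and dnajb1a the other 4 controls lie below all 5 4AP libraries, whereas control 5 lies within or above them, and for hspb1 all 4AP libraries lie below all controls.

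Leaving out 4AP control 5 changed which members were called. Of 35 members tested 7 then rose and 4 fell, where 26.4% of the 4373 genes tested were called higher and 22.5% lower. The members' share called higher is thus not above the background. The 7 were hsph1 (log2 fold change 2.45 ± 0.45, adjusted p = 0.000368), dnajc5ab (2.17 ± 0.55), dnajb11 (2.08 ± 0.44), hsp90aa1.2 (1.75 ± 0.35), hsp90aa1.1 (1.41 ± 0.48), hsp70.1 (1.04 ± 0.22) and hspa9 (0.99 ± 0.40, SE, adjusted p = 0.049). dnajc5ab, a cysteine-string J-protein in the family that guards synaptic vesicle proteins, was singled out after its values were seen. hsph1, dnajc5ab, dnajb11, hsp90aa1.1 and hspa9 had at most 10 reads in each of controls 1 to 4. They passed the filter only through the 4AP libraries and could hardly have been called lower. hspb1, hspa4a, hspe1 and dnajc15 fell in that fit too, and dnajc19 was not tested in it. Without control 5 all P2 libraries are 4AP and all P1 libraries are controls, so the prefix and the treatment cannot be told apart there.

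When the prefix entered the fit of all 10 libraries, where the treatment estimate rests on 4AP against control 5, 0 members and 0 of all 5161 genes were called. At an unadjusted p under 0.05 that fit gave 106 genes. Of the 5 members called without it, hspb1 had a log2 fold change of -1.43 ± 0.39 with the prefix in the fit, hspa4a -0.78 ± 0.40, hspe1 -0.47 ± 0.36, dnajc19 -0.93 ± 0.80 and dnajc15 0.38 ± 0.64 (SE, adjusted p = 1.0 for each). In the same fit the hsp70 copies had log2 fold changes of -1.29, -1.30, -1.66 and -0.83 (hsp70.1, hsp70.2, hsp70.3 and hsp70l, adjusted p from 0.19 to 1.0). The library total as a term also left 0 members and 0 genes called, with 496 genes at an unadjusted p under 0.05. Some markers of other cells also differed between controls 1 to 4 and the P2 libraries, in either direction, and others did not. The 7 neuronal markers, none at 0 in every library, summed to 83.4 to 153 CPM in controls 1 to 4, 529 in control 5 and 376 to 578 in 4AP. The 3 red blood cell markers found, none at 0 in every library, summed to 321 to 964, then 4951, then 1269 to 4588. The 6 exocrine pancreas markers went the other way, with 10315 to 20020, then 8026, then 3986 to 9080. The 6 skeletal muscle markers overlapped, with 2417 to 4578, then 2979, then 1239 to 4923. For the 6 OPC markers the sums were 213 to 374 in controls 1 to 4, 348 in control 5 and 444 to 659 in 4AP. The part of these cells in the chaperone values was not tested.

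**Figure D4:**
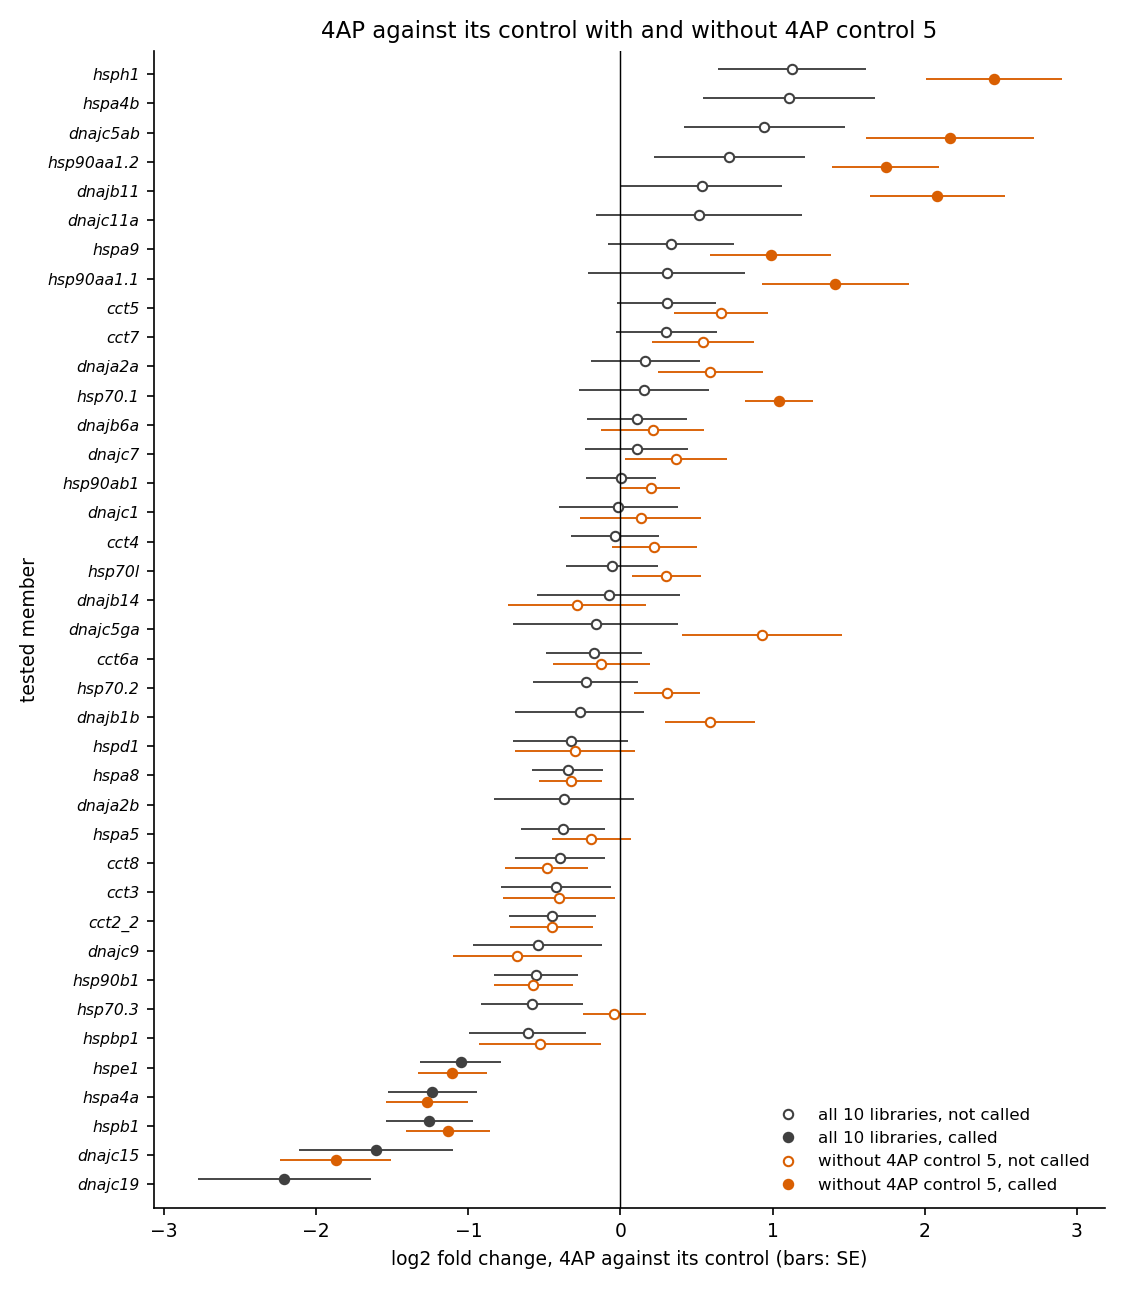
Log2 fold change (horizontal axis, bars are SE) of the 39 members tested in 4AP against its control, with all 10 libraries (dark) and without 4AP control 5 (orange, drawn for members tested in that fit too). Filled points were called at an adjusted p under 0.05. The 5 filled dark points all lie below 0, and hsph1 moves from 1.13 to 2.45 when control 5 is left out.

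No ER member was called in 4AP, where 2 of 2 ER chaperones and 3 of 13 other ER members had enough reads for a test. hspa5, known as BiP, is the HSP70 of the ER and the sensor that holds the unfolded protein response in check. It had 152, 263, 255, 269 and 322 normalised CPM in the controls and 145, 160.2, 246, 213 and 206 in 4AP (log2 fold change -0.38 ± 0.28, SE, adjusted p = 0.34). hsp90b1, the ER HSP90 known as GRP94, had 189, 286, 266, 247 and 179 in the controls and 214, 124, 188, 145 and 123 in 4AP. The groups overlapped, and its log2 fold change of -0.55 ± 0.28 (SE) had an adjusted p of 0.17. dnajb11, an ER J-protein that works with hspa5, had 7.27 to 22.7 in controls 1 to 4 and 117 in control 5, against 43.1 to 83.1 in 4AP. Its log2 fold change of 0.53 ± 0.53 (SE, adjusted p = 0.48) was 2.08 without control 5. Its listed span lies within that of rabl3 on the opposite strand, and whether counting used strand is not given in the sources used here.

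No CCT subunit was called in 4AP. Of 8 rows 7 were tested and 0 called, with log2 fold changes from -0.45 (cct2_2) to 0.30 (cct5) and standard errors of 0.28 to 0.36. The 5 values of cct5 were 101, 63.5, 66.5, 80.0 and 151 normalised CPM in the controls and 111, 127, 73.1, 162 and 114 in 4AP. cct8 spanned 68.1 to 83.7 in 4AP against 63.1 to 127 without it. Both subunits overlapped between the groups. cct3, cct4, cct6a and cct7 gave adjusted p-values from 0.41 to 0.94, and cct2_1, a short row with 21 reads in all, was not tested. Changes larger than these standard errors could also go uncalled at this depth. In the same fit hsph1, at 1.13 ± 0.48 (SE), had an adjusted p of 0.12 (edgeR's quasi-likelihood test).

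Among the 7 constitutive cytosolic members 4 were tested and hspa4a alone was called. hspa4b, looked up after the values were seen, had an estimate of the opposite sign to that of hspa4a. Its log2 fold change was 1.11 ± 0.56 (SE, adjusted p = 0.18, edgeR's quasi-likelihood test). It had 1, 2, 0, 1 and 23 reads in the controls and 10 to 70 in 4AP, and 11.9% of its reads lay in introns. hspa8, the everyday HSP70 that also uncoats clathrin vesicles, had 1729.8, 2067, 2176, 2029 and 1658 normalised CPM in the controls and 1922, 1459.9, 1728, 1315 and 1172 in 4AP (log2 fold change -0.35 ± 0.23, SE, adjusted p = 0.30). hsp90ab1, the constitutive HSP90, spanned 1003 to 1289.7 in 4AP against 924 to 1574 without it, and gave 0.0045 ± 0.23 (SE, adjusted p = 0.99). Of the 28 other J-proteins 7 were tested and 0 called, with log2 fold changes from -0.54 to 0.95. None of the 6 other small heat shock proteins had enough reads for a test. hspb8, which pairs with Bag3 to clear misfolded protein, spanned 8.10 to 21.0 normalised CPM in 4AP against 0 to 36.3 without it.

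Genes that work with the members were taken from a list of 66, of which 62 were in the tables. In 4AP 32 were tested, with 1 higher and 4 lower, where 2.98% of all genes tested were called higher and 10.1% lower, so these counts stand near the background too. bag3, an Hsf1 target and HSP70 co-chaperone, was called higher. It had 0, 0, 5.54, 0 and 13.9 normalised CPM in the controls and 25.1, 36.0, 22.4, 30.7 and 37.1 in 4AP. Its log2 fold change was 2.25 ± 0.65 (SE, adjusted p = 0.0322). The controls without a read were 3 of 5, and no control held more than 11 reads. bag3 therefore passed the filter only through the 4AP libraries and could hardly have been called lower. It was not tested without control 5. sgta (-1.20) and ptges3a (-1.26), co-chaperones of HSP70 and HSP90, fell, as did vbp1 (-1.30), a prefoldin subunit, and pdcd5 (-1.20), which binds CCT (adjusted p from 0.0239 to 0.0393). The call of each was lost in at least 5 of the 10 fits that left out 1 library, and bag3 could not be tested in some of them.

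To ask how demyelination bears on the same genes, the demyelination group was compared with its control. In the 14 members with enough reads 0 were called, and 0 had an unadjusted p under 0.05 (edgeR's quasi-likelihood test). Over all 823 genes tested 0 (0%) were called and 78, or 9.48%, had an unadjusted p under 0.05. DESeq2's Wald test called 0 members too. The median log2 fold change was -0.25 over the 14 members and 0.21 over all genes tested. Under library totals both medians were lower, -0.59 and -0.12. Without demyelination control 5 the members' median was 0.016, against 0.23 over all genes tested.

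The hsp70 copies overlapped between the groups of the demyelination experiment. In 0 of the 14 members tested were the groups apart, as they were in 1.94% of all genes tested with demyelination higher and 0.122% with it lower. hsp70.1 had 0, 6022, 3424, 3367 and 7089 normalised CPM in the controls, where the 0 belongs to the library of 1180 reads, and 2930.5, 3651, 1272, 5146 and 2069 in demyelination. hsp70.2 had 9245, 16568, 10180.0, 10612 and 21513 in the controls and 8456, 11621, 4099, 17281 and 6645 in demyelination. The log2 fold changes were -0.46 ± 0.64 (hsp70.1), -0.51 ± 0.45 (hsp70.2), -0.25 ± 0.55 (hsp70.3) and -0.35 ± 0.46 (hsp70l, SE), with adjusted p-values from 0.67 to 0.91. Without demyelination control 1 they were -0.65, -0.54, -0.42 and -0.47, and none was called. hspb1 had the smallest p among the members. Its normalised CPM was 925, 1635, 602, 707 and 1973 in the controls, where the 925 rests on 2 reads. In demyelination it was 1214, 628, 367, 821 and 324. The groups overlapped, and its log2 fold change was -0.87 ± 0.47 (SE, adjusted p = 0.46).

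The remaining members tested there gave values on both sides of 0. hspbp1, an exchange factor of HSP70 with 82.6% of its reads in introns, had the largest estimate, 0.98 ± 0.60 (SE, adjusted p = 0.49), with 1244 normalised CPM in demyelination 3 against 118 to 377 in the other 4 treated libraries. hsph1 gave 0.42 ± 0.56, hsp90aa1.2 0.20 ± 0.41, hsp90ab1 0.36 ± 0.45, hspa8 0.15 ± 0.47, dnajb1b -0.10 ± 0.46 and hspa4a -0.26 ± 0.42 (SE, adjusted p from 0.79 to 0.95). hspa5 had 0, 259, 104, 236 and 371 normalised CPM in the controls and 209, 157, 28.3, 333 and 142 in demyelination, and the log2 fold change was -0.51 ± 0.48 (SE, adjusted p = 0.70). hspe1, lower in 4AP, gave -0.44 ± 0.34 (SE, adjusted p = 0.61). No CCT row, ER J-protein, other J-protein or other small heat shock protein had enough reads for a test. Among the untested members the groups were apart for cct4 alone. It had 73.2 to 88.7 normalised CPM in demyelination, from 2 to 151 reads, and 0 to 69.4 in the controls, from 0 to 7 reads. The share over all genes with too few reads is not given here, so this is not read as a rise. Of the listed partners 3 were tested and 0 called.

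Because the title of the study contrasts adaptive with regenerative myelination, the responses to both treatments were set against each other. In 33 members tested over all 20 libraries 0 differed between the responses and 0 had an unadjusted p under 0.05 (edgeR's quasi-likelihood test). Of the 3981 genes tested 1.66% were called. In 0.352% the log2 fold change was higher for 4AP than for demyelination, and in 1.31% it was lower. DESeq2's Wald test called 0 members. The smallest p was that of hspbp1, with a difference of -1.30 ± 0.65 on the log2 scale (SE, adjusted p = 0.31). For hspb1, called in 4AP and not in demyelination, the difference was -0.25 ± 0.56 (SE, adjusted p = 0.90), and for hspa4a it was -0.85 ± 0.53 (SE, adjusted p = 0.44). The fall of neither was therefore shown to differ between treatments. Without 4AP control 5 the log2 fold changes of hsph1, dnajb11 and hsp90aa1.2 were called higher for 4AP than for demyelination, as were those of 9.53% of 4018 genes. The differences were 2.21, 2.56 and 1.66 (same test, adjusted p from 0.00773 to 0.0365). They compare responses and not levels. In that fit too all 4AP controls are P1 and all 4AP libraries P2, so the prefix and the 4AP treatment cannot be told apart. hsph1 had 2 reads in each of 4AP controls 1 to 4, and dnajb11 had 1 to 5.

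CPM of Total gene reads put all 20 libraries on 1 scale, though the experiments differ in prefix and depth and were not tested against each other. On it hspb1 was 153 to 235 (median 179) in the 4AP controls and 80.3 to 147 in 4AP, and it was 160.3 to 711 under demyelination and 429.5 to 1695 (median 1092) in the controls of that treatment. hsph1 had medians of 9.43 without and 55.3 with 4AP, and of 109 without and 131 with demyelination. hsp90aa1.2 had medians of 161, 497, 867 and 793 in the same order. In demyelination control 1, the library of 1180 reads, the value for hspb1 rests on 2 reads, that for hsp90aa1.2 on 1 and that for hsph1 on 0. Without that library, left out after seeing the data, the demyelination controls had 429.5 to 1314 (median 792) for hspb1, and their medians were 182 for hsph1 and 997 for hsp90aa1.2. With and without it, for these 3 members the control medians of the demyelination experiment exceeded those of the 4AP experiment. For hspa8, by contrast, the medians were 1543, 1452, 900.3 and 522, and for hspa5 217, 196, 164 and 104.

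The hsp70 copies also differed in where their reads lay. Their listed spans hold only short stretches outside exons: 483 bases (hsp70.1), 449 (hsp70.2), 998 (hsp70.3) and 452 (hsp70l). Intron here means only that a read was counted outside the listed exons of the gene. What kind of RNA such reads come from was not tested. For hsp70.1, hsp70.2 and hsp70.3, what part of them comes from atp2a1, whose span holds these copies, was not tested either. The share of a copy's reads assigned to introns was compared between groups, a test added after the values had been seen, with a two-sided exact permutation test over libraries with at least 10 reads of the copy. In 4AP controls 1 to 5 it was 24.3%, 13.8%, 16.1%, 23.5% and 18.7% for hsp70.1, and in 4AP 1 to 5 it was 29.8%, 43.5%, 30.4%, 38.6% and 35.2%. The groups did not overlap, with means of 19.3% ± 4.58 and 35.5% ± 5.74 (SD, n = 5 each, exact permutation p = 0.00794, adjusted over 10 tests 0.0265). That p is the smallest that 5 against 5 can give. hsp70.2 went from 36.9% ± 7.60 to 57.5% ± 7.31 and hsp70l from 32.8% ± 9.73 to 58.5% ± 8.08 (SD, n = 5 each, the same exact permutation p and adjusted p). hsp70.3 went from 24.5% ± 8.82 to 43.4% ± 6.79 (SD, n = 5 each, exact permutation p = 0.0159, adjusted 0.0397), with a slight overlap. Over all genes the mean intron share was instead 33.3% ± 7.36 in the controls and 26.5% ± 2.14 in 4AP, which did not pass the test (SD, n = 5 each, exact permutation p = 0.0873, adjusted 0.175). 4AP control 5 stood apart here, with 20.5% against 34.3% to 38.5% in controls 1 to 4 and 24.3% to 29.8% in 4AP. Without it the groups did not overlap, and the difference was -10.0 percentage points (exact permutation p = 0.0159, unadjusted and the smallest that 4 against 5 can give, added after the values had been seen).

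4AP control 5, which stood apart in the level of these copies, had intron shares within the range of the other 4 controls for all copies, such as 38.1% for hsp70l. Without it the differences were 16.1, 19.8, 17.5 and 27.0 percentage points (hsp70.1, hsp70.2, hsp70.3 and hsp70l). On unique reads the difference was 17.8 percentage points for hsp70.1, 22.1 for hsp70.2 and 22.3 for hsp70l, whereas hsp70.3 had no unique intron read in either group and its difference cannot be assigned to that copy. In the demyelination experiment no copy passed the test: hsp70l reads were 49.8% ± 12.1 intronic with demyelination and 54.1% ± 7.68 without (SD, n = 5 each, exact permutation p = 0.54), and the other copies gave exact permutation p-values of 0.841 to 0.984. Whether the 4AP and demyelination differences differ from each other was not tested.

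**Figure D5:**
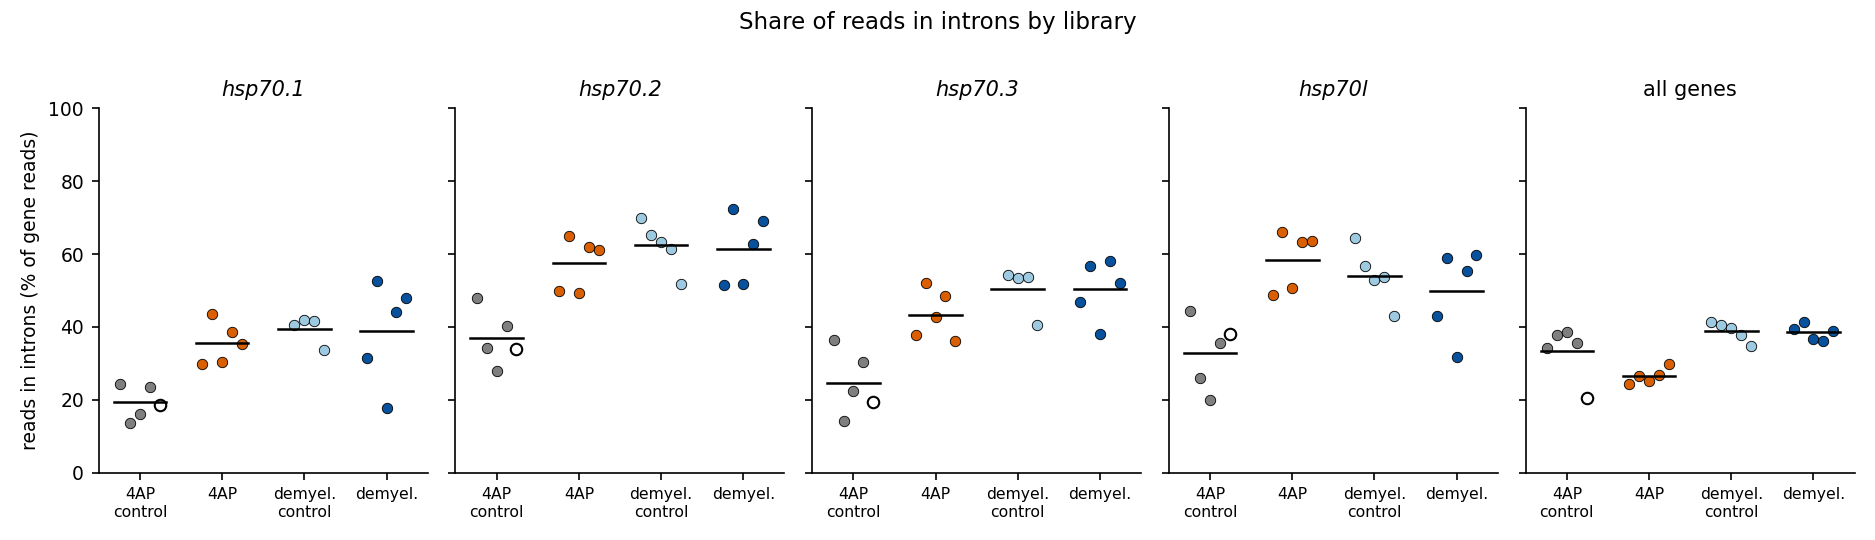
Share of reads in introns (percent of a gene's reads, axis from 0 to 100) for the 4 hsp70 copies and for all genes together, by library in the 4 groups. Points are libraries with at least 10 reads of the copy, lines are means and the open circle is 4AP control 5. For hsp70.1, hsp70.2 and hsp70l all 4AP libraries lie above all 4AP controls, while for all genes together the mean is 33.3% in the controls and 26.5% in 4AP.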

How the data were processed

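Each of the 20 deposited tables gives, per the file headers, gene-level counts, in separate columns, of all reads, unique reads and those in exons or introns for 31743 genes. Per the labels' protocols, libraries were made with the QIAseq UPX 3' kit from 1 ng or 4 ng of RNA, with no record here of which library had which. The build is GRCz11 per the submitters' processing notes; the aligner, strandedness and use of molecular identifiers are not given in the sources used here, so copies of 1 molecule may have been counted more than once. Coordinates are those of the tables.

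Total gene reads were tested with edgeR 4.0.16 (R 4.3.3): filterByExpr (minimum count 10, minimum total 15), TMM, robust quasi-likelihood fit, Benjamini-Hochberg adjustment over all genes tested, with calls made below 0.05. The fits used 10 libraries per treatment comparison and, for the difference of responses, all 20 with a coefficient for each group. The SE is the log2 fold change divided by the square root of F. Normalised CPM is reads over the TMM-scaled reads of the tested genes of that experiment. DESeq2 1.42.0 was an alternative, as were other filters, scalings, columns, terms and each library left out. The fit was also run on simulated counts, with the outcome not given here. Those counts held no difference between prefixes, so that run cannot bear on the prefix. Exact permutation tests used scipy 1.17.1.

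Members were named if called, if ER chaperones or CCT, if stress-inducible with a mean of at least 5 reads, if among the 2 most abundant of their class, or if they had 1 of the 2 smallest p-values in a comparison. The members and lists were chosen with earlier results of these data known. No pair of libraries in a group looked like a repeat deposit: all pairs differed beyond sampling noise except demyelination controls 1 and 3 (chi-square test), of which the first holds 1180 reads.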

Additional observations from a re-analysis of the deposited data

Results flagged for a closer look

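A library was singled out where its gap to the nearest other library, divided by the range of its group, exceeded Dixon's 95% critical value. For independent, normally distributed values chance does this in about 1 in 20 groups. These counts are sparse and of unequal depth, and the hsp70 copies share reads, so that rate need not hold here. A library that alone has reads in its group is always singled out. Of 143 sets of 5 values 32 were singled out, 10 of them for 4AP control 5. No explanation was tested. In 4AP control 5 the normalised CPM was 17089 for hsp70.1 (others 3004 to 4306), 24832 for hsp70.2, 12339 for hsp70.3, 619 for dnajb1b, 18.9 for dnajb1a, 59.3 for hsph1, 1083 for hsp90aa1.2, 127 for hsp90aa1.1, 117 for dnajb11 and 3.78 for hspb15. All 10 stood above the other controls.

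In the remaining 4AP controls, cct3 was high in control 1 at 143 and hspbp1 low in control 4 at 87.3. Among 4AP libraries the fifth was high for hspb1 at 154, hspa4a at 204 and hsp70.3 at 5524, and the third was high for cct4 at 128.

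Demyelination control 1, with 1180 reads, had 0 normalised CPM for dnajc15, hsp90b1, cct2_2, cct7 and hsp90ab1, and 462 for cct8. Demyelination control 4 had 13.1 for hspb15, from 1 read. In the demyelination group, library 1 was high for cct2_2 at 209 and hspa12a at 126. Library 3 was high for hspbp1 at 1244 and dnajc9 at 452, and library 4 for hspa4a at 688 and hspb8 at 177. Library 5, the deepest, was the only 1 of its group with reads of cct2_1 (1.46), dnajb1a (16.5) and hspb15 (2.43).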

How the results depend on the processing

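In 4AP the count of called members was 5, all lower. It was 4 with DESeq2's size factors, 5 with its Wald test and 6 on unique reads. It was 3 with library totals, with no filter, with a minimum of 10 reads throughout a group, on exon reads and with all 20 libraries in 1 fit, and 0 with either the prefix or the library total in the model. Leaving out 1 library gave 2 to 11, the 11 without 4AP control 5. hspb1 and hspa4a were called in 10 of the 10 such fits, hspe1 in 6, dnajc19 in 4 of the 5 that tested it and dnajc15 in 1. A replicate block gave 3. Libraries with the same number correlated between -0.10 and 0.11. Values this weak cannot decide whether the numbers pair samples, and the labels do not state it. The sign of 1 called member reversed: dnajc15 had a log2 fold change of 0.38 with the prefix as a term. The cause of these changes was not tested. Library totals moved the median of all genes by 0.31 in 4AP, by -0.33 in demyelination and by 0.45 in the difference.

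In demyelination 0 members were called under every alternative run, the replicate block included. The difference of responses gave 0 except without 4AP control 5, where it gave 3, so that leaving out 1 library gave 0 to 3. Signs of members called in neither fit were not read. The unique-read and left-out-library values of the intron shares were added after seeing the data, and only hsp70.3 on unique reads, with a difference of 0, lost its test result. Depth limits the demyelination comparison most, where 81 of 95 members had too few reads.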
